A study of Mus musculus with 15 samples.

Results

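Collagen chain genes were followed in the kidney of diabetic db/db mice and of m/m controls. They are the rows of the deposited expression table whose gene symbol is Col, a number, the letter a and a number, with nothing after it, which gave 44 of 17832 genes. Of these, 11 encode fibrillar chains, 8 basement membrane chains and 25 other chains. All mice were male, of the C57BLKS/J strain and 22 weeks old. All were given 0.5% methylcellulose, the vehicle. The 5 m/m and 5 of the db/db libraries came from mice given it alone, and 5 db/db libraries from mice also given dapagliflozin at 1 mg/kg. Dapagliflozin inhibits SGLT2, the glucose transporter of the proximal tubule, and db/db mice have a defective leptin receptor in every cell, so that obesity and diabetes come together. Whether each library stands for its own mouse is not stated, and the p-values therefore describe variation among the sequenced samples, some of which may be technical.

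Collagens are extracellular matrix proteins in which chains wind around each other into a helix. Fibrillar collagens (types I, III and V among them) form the fibres of the interstitium, which is thin in a healthy kidney and expands in fibrosis. Type IV collagen forms the network of basement membranes: the Col4a1 and Col4a2 chains occur in nearly all of them and in the mesangial matrix, while the Col4a3, Col4a4 and Col4a5 chains form the mature glomerular basement membrane, where podocytes make them, and their loss causes Alport syndrome.

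The libraries fell into a high-read set (m/m 1 to 5 and db/db vehicle 1 to 3, with 14.8 to 16.4 M reads each) and a low-read set (db/db vehicle 4 and 5 and dapagliflozin 1 to 5, with 1.60 to 2.29 M). All m/m libraries are in the first set and all dapagliflozin libraries in the second, so db/db was compared with m/m within the high-read set and dapagliflozin with vehicle within the low-read set. Differences between 2 libraries were set against what the sampling of reads alone gives, as a ratio of variances over genes with 40 to 199 reads in the pair. The ratio was under 1 in 4 of 21 low-read pairs: 0.729 for dapagliflozin 1 and vehicle 5, 0.758 for dapagliflozin 5 and vehicle 4, 0.724 for dapagliflozin 2 and 3, and 0.885 for dapagliflozin 1 and 2. The other low-read pairs had ratios of 1.20 to 2.61, and the 28 high-read pairs 1.84 to 14.3. Each low-read vehicle library thus differed from 1 dapagliflozin library by less than the sampling noise, and the 2 vehicle libraries differed from each other by more (1.64). Dapagliflozin 2 and 3, of 1 group, were averaged and counted as 1 sample. Results of the drug comparison are also given without dapagliflozin 1 and 5, which leaves 2 samples against 2.

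**Figure D1:**
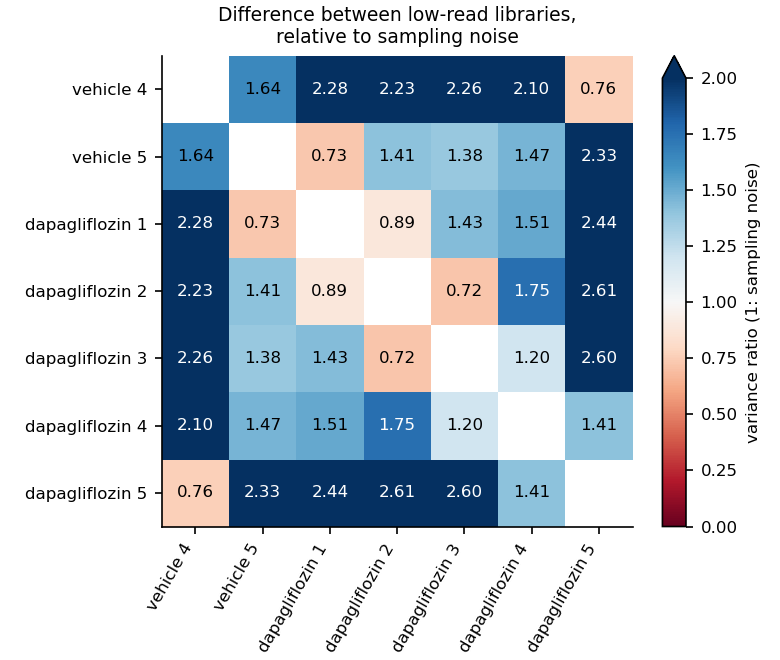
Matrix of the low-read libraries against each other; each cell gives the variance ratio of the pair, where 1 is the sampling noise of reads. Red cells are under 1: they join vehicle 4 to dapagliflozin 5 (0.76) and vehicle 5 to dapagliflozin 1 (0.73), while the pair of vehicle libraries stands at 1.64.

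Levels are FPKM, fragments scaled to transcript length and to the depth of the library, and can be compared between genes. The collagen genes accounted for 0.165 to 0.202% of all reads in the m/m libraries, 0.219 to 0.237% in db/db vehicle 1 to 3 and 0.117 to 0.208% in the low-read libraries. In m/m kidney the order was led by basement membrane chains: Col4a3 with a mean of 46.4 ± 4.84 FPKM (SD, n = 5), Col4a1 with 44.2 ± 3.08, Col4a4 with 35.7 ± 2.04, Col4a2 with 34.1 ± 2.47 and Col18a1 with 24.4 ± 2.07. Col4a3 and Col4a1 overlapped in range, as did Col4a4 and Col4a2, so those neighbours were not separated by their spread. The basement membrane chains made up 82.3 to 86.7% of the summed collagen FPKM in m/m libraries and 69.5 to 76.4% in db/db vehicle 1 to 3. Their summed level itself was not lower in db/db, at 180 to 218 FPKM in m/m libraries and 222 to 233 in db/db vehicle 1 to 3. The fibrillar chains made up 6.75 to 9.86% in m/m libraries and 14.9 to 17.5% in db/db vehicle 1 to 3. The groups did not overlap in either share. In db/db vehicle 2 and 3, however, 1 gene, Col27a1, held 24.5 of 44.8 and 32.3 of 47.3 fibrillar FPKM. It held 9.01 of 58.7 in vehicle 1, and had 3.82 to 9.50 FPKM in m/m libraries. The higher fibrillar share is therefore not a measure of the class as a whole. The low-read libraries had fibrillar shares of 16.9 to 29.3%, of which the highest 2 were vehicle 4 (28.5%) and dapagliflozin 5 (29.3%). There were 29 members above 0 in all 15 libraries.

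**Figure D2:**
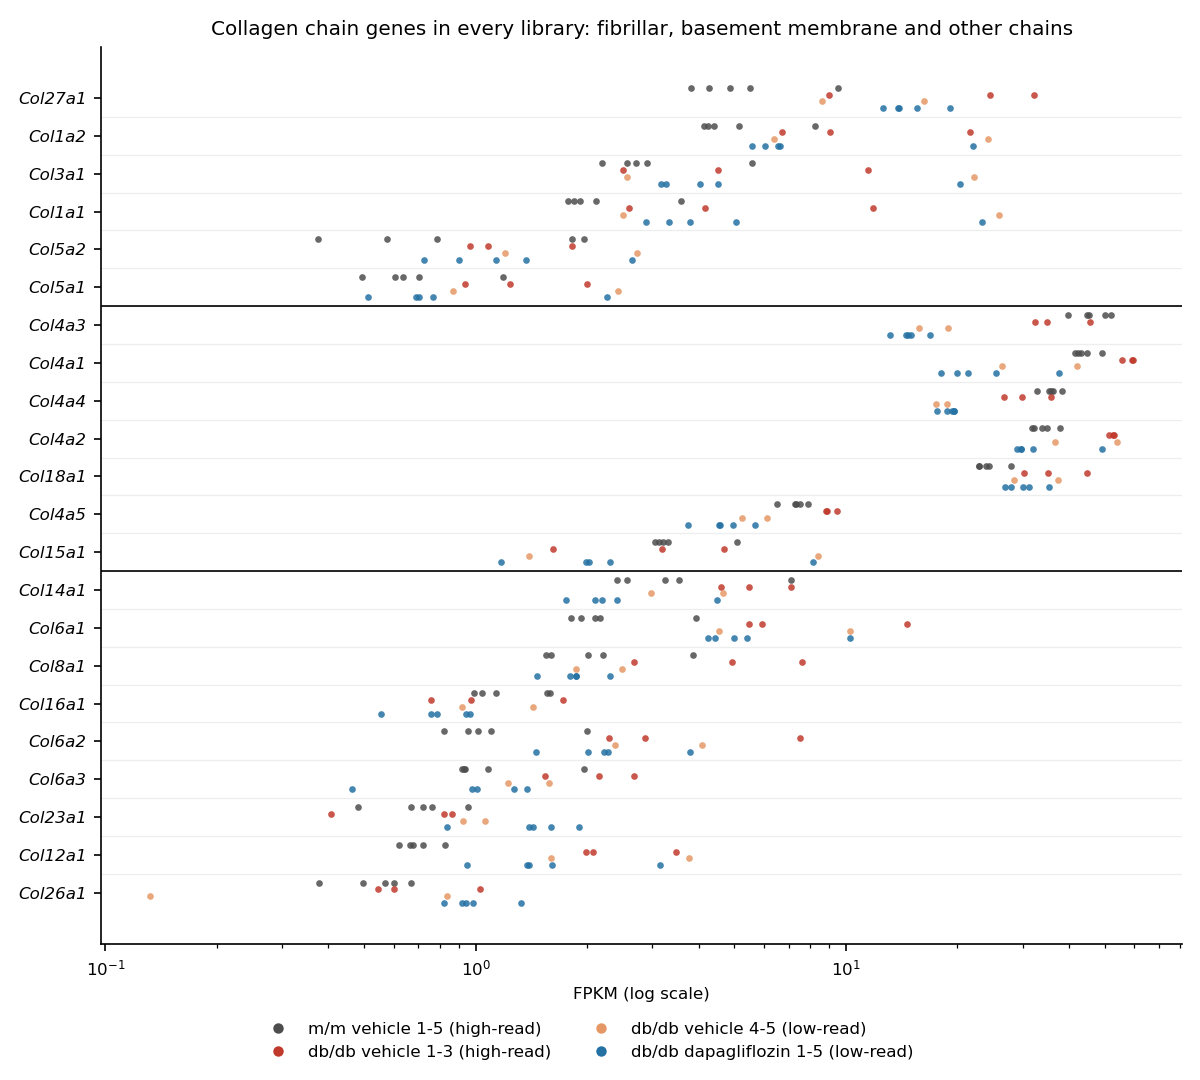
FPKM on a log axis of the 22 tested collagen chain genes in each of the 15 libraries (one point per library, coloured by group and library set), with fibrillar chains above the first line, basement membrane chains between the lines and other chains below. The 3 db/db vehicle points of Col4a1, Col4a2, Col4a5, Col18a1, Col6a1, Col6a2 and Col12a1 lie to the right of all 5 m/m points.

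Differences were tested with limma on log2(FPKM + 1) for genes averaging 0.5 FPKM or more, and those with an adjusted p under 0.05 are named as called. Fold changes on that scale understate the change of genes of low expression, so the ratio of mean FPKM is given beside them. Of the 44 members, 22 passed that filter: 6 fibrillar, 7 basement membrane and 9 other chains. The filter lay between the highest member below it, with a mean of 0.424 FPKM, and the lowest one above it, with 0.723.

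In db/db vehicle 1 to 3 against m/m, 9 of the 22 tested members were called higher and 0 lower (11 had an unadjusted p under 0.05). Of all 12869 genes tested, 29.5% were called higher and 8.31% lower, 37.8% in all. The 9 members are 40.9% of those tested, near the share of all genes. The median log2 difference was 0.55 over the tested members and 0.16 over all genes, so most genes stood slightly higher in db/db on this scale. Median-of-ratios scaling, which takes that shift away, moved the median of all genes to -0.00 and the split of calls over all genes from 3799 higher and 1070 lower to 1489 and 2349. With it, 6 tested members were called higher and 2 lower. By class, 1 of 6 fibrillar, 3 of 7 basement membrane and 5 of 9 other chains were called. In 7 members the db/db libraries lay above all m/m libraries, and in 0 below, against 37.5% and 10.2% of all genes tested.

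**Figure D3:**
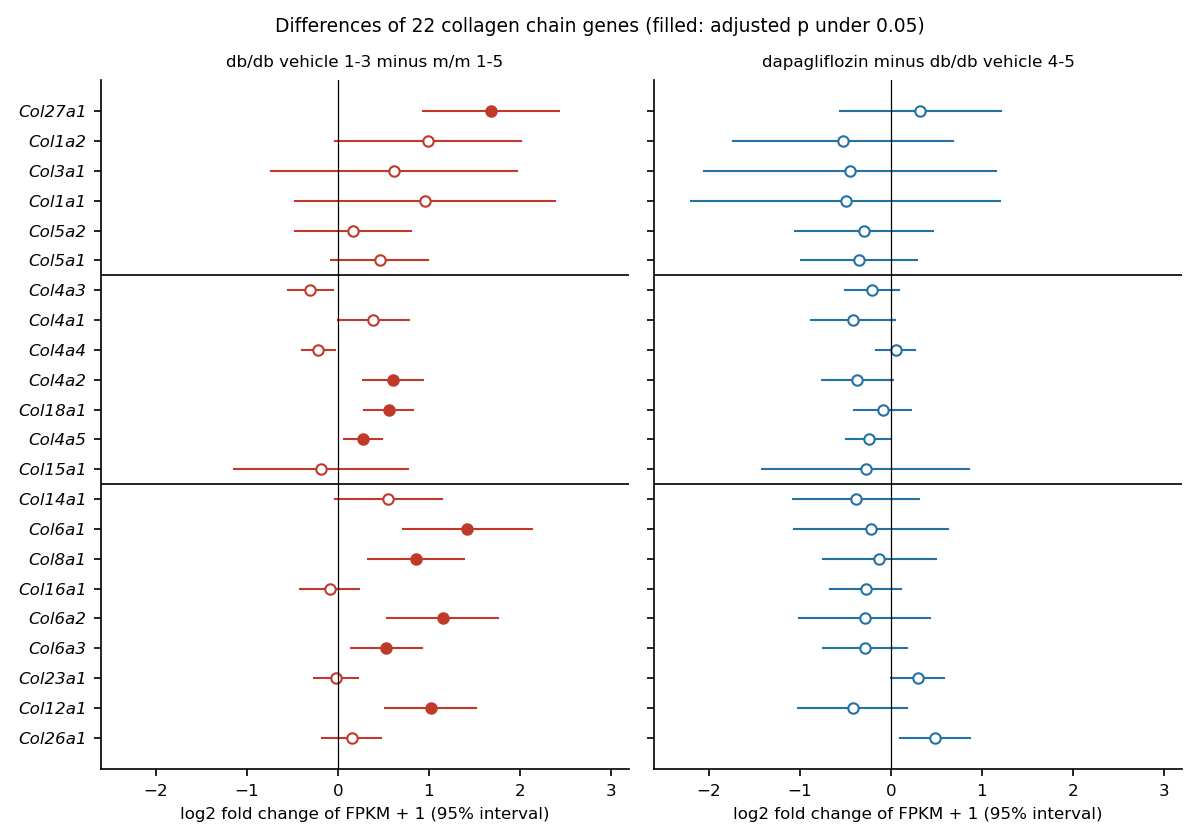
Log2 differences of FPKM + 1 with 95% intervals for the 22 tested members, db/db vehicle 1 to 3 minus m/m on the left and dapagliflozin minus db/db vehicle 4 and 5 on the right, in the order of the plot of levels. Filled points have an adjusted p under 0.05: 9 on the left, all above 0, and 0 on the right.

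Among the fibrillar chains, the interstitial collagens differed widely between libraries of 1 group. Col1a1, a chain of type I collagen, stood at 3.59, 1.85, 1.77, 2.11 and 1.92 FPKM in m/m 1 to 5 and at 11.8, 4.15 and 2.60 in db/db vehicle 1 to 3. One db/db library, vehicle 1, was far above the others, and vehicle 3 lay within the m/m range. The log2 difference was 0.96 ± 0.66 (SE; adjusted p = 0.273) and the ratio of means 2.75. Its partner chain Col1a2 had 8.26, 5.14, 4.25, 4.41 and 4.15 FPKM in m/m libraries and 21.7, 9.07 and 6.74 in db/db, a log2 difference of 0.99 ± 0.47 (adjusted p = 0.115). Here too vehicle 1 was highest of db/db and m/m 1 highest of m/m. The type III chain Col3a1 followed the same order, with 5.58, 2.91, 2.71, 2.19 and 2.56 FPKM in m/m libraries and 11.5, 4.52 and 2.50 in db/db (log2 difference 0.62 ± 0.63, adjusted p = 0.460). Type V chains regulate the diameter of type I fibrils. Col5a1 had 0.493 to 1.18 FPKM in m/m libraries and 1.996, 0.938 and 1.23 in db/db (0.46 ± 0.25, adjusted p = 0.164), and Col5a2 0.375 to 1.96 in m/m libraries and 1.82, 0.964 and 1.08 in db/db (0.17 ± 0.30, adjusted p = 0.677). Both overlapped between the groups, while the third type V chain, Col5a3, was below the filter, with 0.131 to 0.229 FPKM in m/m libraries and 0.463, 0.307 and 0.243 in db/db.

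Col27a1, a fibrillar chain best known from cartilage, had the largest log2 difference of the tested members. It stood at 4.26, 4.87, 5.52, 9.50 and 3.82 FPKM in m/m 1 to 5 and at 9.01, 24.5 and 32.3 in db/db vehicle 1 to 3. Here vehicle 1 was the lowest of db/db, the opposite of its place for Col1a1, and m/m 4 lay just above it. The log2 difference was 1.69 ± 0.35 (95% interval 0.94 to 2.43, adjusted p = 0.00215), with a ratio of means of 3.92. Its start window is printed with those of the type IV chains.

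The 3 interstitial chains were high in the same libraries as the sum of macrophage markers. The sum of Col1a1, Col1a2 and Col3a1 was 8.62 to 17.4 FPKM across the m/m libraries, 44.98, 17.7 and 11.8 in db/db vehicle 1 to 3, 72.2 and 11.5 in vehicle 4 and 5, and 12.5, 16.2, 14.4, 11.7 and 65.8 in dapagliflozin 1 to 5. The 8 fibroblast and pericyte markers summed to 17.7 to 26.8 FPKM in m/m, with m/m 1 highest, and to 59.4, 28.6 and 26.02 in db/db vehicle 1 to 3. Of the 6 tested ones, 3 were called higher. In the low-read set their sum was 35.3 and 22.4 FPKM in vehicle 4 and 5 and 22.6, 32.0, 28.9, 16.5 and 29.9 in dapagliflozin 1 to 5. That dapagliflozin 2 stood above dapagliflozin 5 turned on 1 marker, Dpt, with 10.5 FPKM against 2.81. Dpt was 2.81 to 10.5 FPKM in the low-read libraries and 0.118 to 2.54 in the high-read ones. The 6 macrophage markers summed to 122 FPKM in vehicle 1, 150 in vehicle 4 and 160 in dapagliflozin 5, and to 19.2 to 66.6 in the other 12 libraries. Most of these 3 high sums was C1qa (41.8, 73.4 and 73.6 FPKM) and C1qb (40.5, 38.2 and 44.8). Csf1r, at 20.1 FPKM in both vehicle 4 and dapagliflozin 5, lay within its m/m range of 14.4 to 20.3. Of the 6 markers, 0 were called in db/db against m/m. A list of 6 urothelium genes, of the lining of the renal pelvis, summed highest in the same libraries, mostly through its keratins. Krt5 had 8.79, 12.5 and 11.3 FPKM there. Of the 4 uroplakins, the defining genes, all were at 0 in dapagliflozin 5 and 3 in vehicle 4, but Upk3a was at 0 in every low-read library. In vehicle 1, Upk3a (1.42 FPKM) and Upk1b (1.07) were the highest of all libraries, while Upk1a (0.626) and Upk2 (0.360) lay within their m/m ranges. The part of these cells in the collagen values was not tested. In bulk RNA, more cells of a type and more RNA per cell cannot be told apart.

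**Figure D4:**
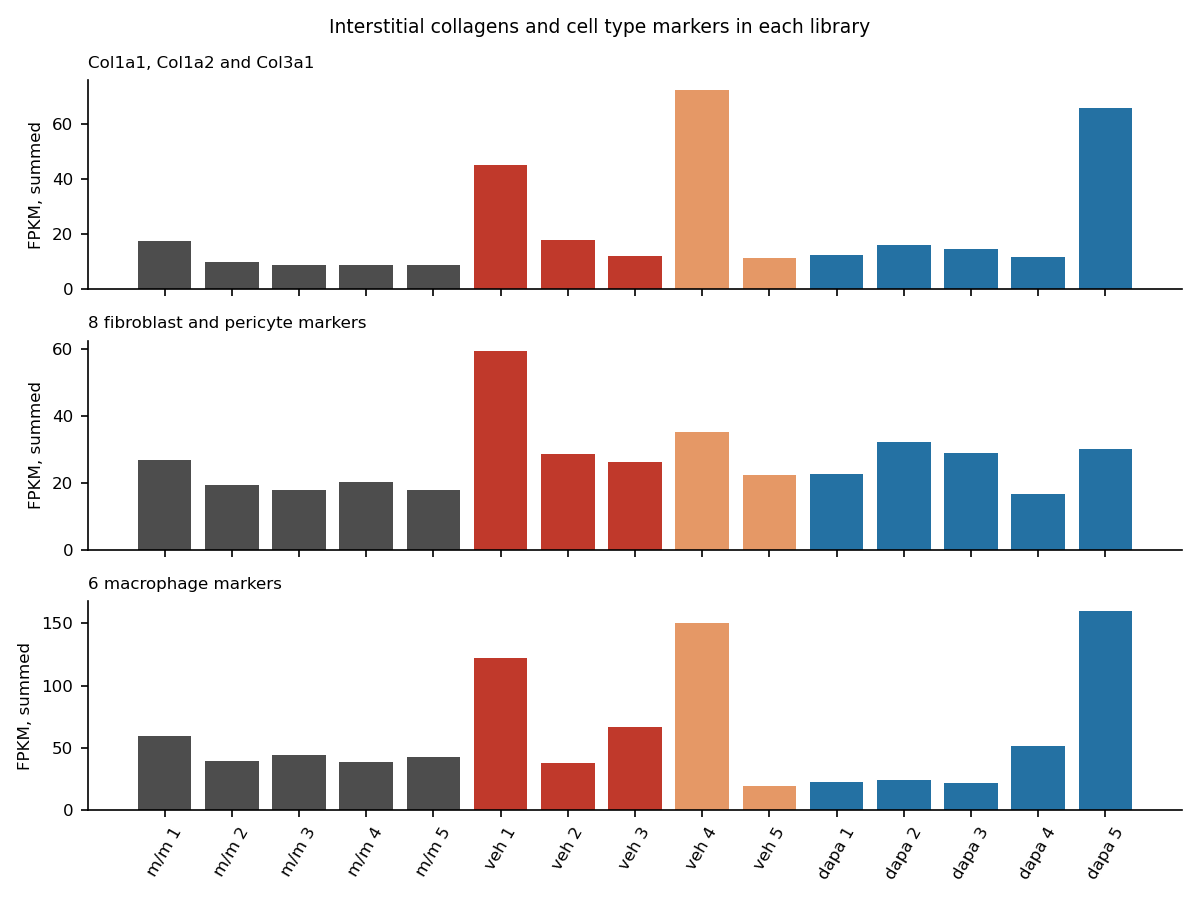
Summed FPKM in each library of Col1a1, Col1a2 and Col3a1 (top), of 8 fibroblast and pericyte markers (middle) and of 6 macrophage markers (bottom), as bars from 0 coloured by group and library set. Vehicle 1, vehicle 4 and dapagliflozin 5 have the highest bars in the top and bottom panels (44.98, 72.2 and 65.8 FPKM for the collagens, 122, 150 and 160 for the macrophage markers). In the middle panel dapagliflozin 2 (32.0 FPKM, of which 10.5 is Dpt) stands above dapagliflozin 5 (29.9, of which 2.81 is Dpt).

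Of the 5 tested type IV chains, Col4a2 and Col4a5 were called higher and the other 3 were not called. Col4a2 had 37.9, 33.8, 34.9, 31.7 and 32.2 FPKM in m/m 1 to 5 and 52.6, 51.3 and 52.9 in db/db vehicle 1 to 3. The groups did not overlap and the db/db libraries lay close together; the log2 difference was 0.60 ± 0.15 (adjusted p = 0.00776) and the ratio of means 1.53. Col4a1 had 49.2, 43.1, 44.9, 41.5 and 42.2 FPKM in m/m libraries and 59.6, 55.6 and 59.1 in db/db. It also did not overlap, but its difference, 0.39 ± 0.18, did not pass the test (adjusted p = 0.108). Col4a3 had 51.9, 44.7, 50.2, 39.7 and 45.5 FPKM in m/m libraries and 35.0, 45.7 and 32.5 in db/db, a log2 difference of -0.30 ± 0.12 (adjusted p = 0.0578). Col4a4 had 38.4, 35.3, 36.3, 32.8 and 35.8 FPKM in m/m libraries and 26.7, 35.9 and 29.9 in db/db, a difference of -0.21 ± 0.08 (adjusted p = 0.0566). In both, vehicle 2 lay within the m/m range and the other db/db libraries below it. Neither was called, but with median-of-ratios scaling both were called lower, at -0.51 (adjusted p = 0.00457) and -0.43 (adjusted p = 0.00307).

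Col4a5, which joins the Col4a3 and Col4a4 chains in the glomerular network, did not take their direction. It had 7.27, 7.32, 7.50, 7.89 and 6.53 FPKM in m/m libraries and 8.90, 9.46 and 8.86 in db/db, with no overlap, a log2 difference of 0.28 ± 0.10 (adjusted p = 0.0377) and a ratio of means of 1.24. With median-of-ratios scaling its difference was 0.08 and it was not called. Col4a6, which pairs with Col4a5 in other basement membranes, was below the filter, with 0.183 to 0.297 FPKM in m/m libraries and 0.726, 0.496 and 0.518 in db/db.

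Ratios between chains within a library do not depend on its scaling. The ratio of Col4a3 to Col4a1 was 0.956 to 1.12 in m/m libraries and 0.587, 0.820 and 0.549 in db/db vehicle 1 to 3. The ratio of Col4a4 to Col4a2 was 1.01 to 1.11 in m/m libraries and 0.508, 0.699 and 0.566 in db/db. In both ratios of a glomerular to a widespread chain, every db/db library lay below every m/m library. Within the glomerular pair, the ratio of Col4a3 to Col4a4 overlapped, at 1.21 to 1.38 in m/m libraries and 1.31, 1.27 and 1.09 in db/db. Col4a1 to Col4a2 was tight within each set: 1.27 to 1.31 in m/m, 1.08 to 1.13 in db/db vehicle 1 to 3, and 0.624 to 0.796 in the 7 low-read libraries. The last step is between vehicle libraries of the same genotype, so this ratio moved further between library sets than between genotypes. These ratios were chosen after the values were seen and are given with no test. Podocyte markers, of the cells that make the glomerular chains, summed to 82.8 to 106 FPKM in m/m libraries and 143 to 162 in db/db vehicle 1 to 3, with 5 of 6 called higher, a direction not shared by Col4a3 and Col4a4; their part in the ratios was not tested.

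**Figure D5:**
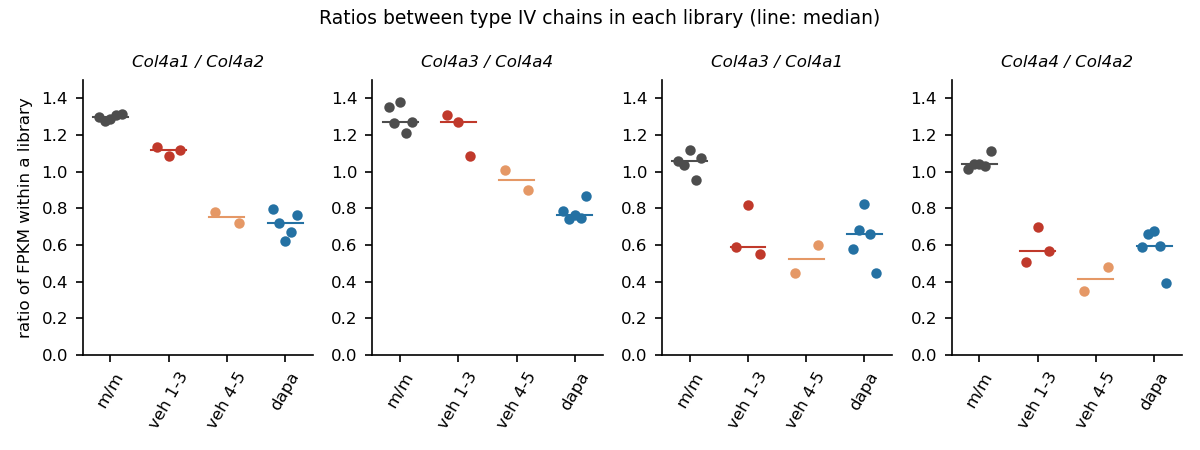
Ratio of FPKM between 2 type IV chains in each library (points) with the median (line), by group and library set, from 0. The ratios of Col4a3 to Col4a1 and Col4a4 to Col4a2 are lower in db/db vehicle 1 to 3 than in m/m, and the ratio of Col4a1 to Col4a2 is 0.624 to 0.796 in the low-read libraries against 1.08 to 1.31 in the high-read ones.

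Col4a1 and Col4a2 lie head to head on opposite strands, as do Col4a6 and Col4a5. In the RefSeq annotation of GRCm38.p6 the starts of Col4a1 and Col4a2 overlap by 22 bases and their start windows, 250 bases before to 50 after the start, share 78 bases, while the starts of Col4a6 and Col4a5 lie 1343 bases apart. The windows of the pair are shown because the ratio of their transcripts varied little within a library set and genotype; that of Col4a4 stands for the glomerular chains and that of Col27a1 for the member with the largest difference. Capitals mark the GC box GGGCGG (bound by factors of the Sp family), the CCAAT box and the TATA box TATAAA, on either strand. The windows are Col4a1 at chr8:11312777-11313076 on the minus strand, Col4a2 at chr8:11312555-11312854 on the plus strand, Col4a4 at chr1:82586800-82587099 on the minus strand and Col27a1 at chr4:63215162-63215461 on the plus strand, each read 5′ to 3′ in the gene's direction.
Col4a1: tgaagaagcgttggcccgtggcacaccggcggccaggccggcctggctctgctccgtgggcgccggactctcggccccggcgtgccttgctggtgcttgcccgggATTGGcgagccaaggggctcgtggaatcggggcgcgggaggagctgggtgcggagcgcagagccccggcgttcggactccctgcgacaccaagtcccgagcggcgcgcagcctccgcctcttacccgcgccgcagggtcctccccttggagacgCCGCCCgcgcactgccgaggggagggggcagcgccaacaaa
Col4a2: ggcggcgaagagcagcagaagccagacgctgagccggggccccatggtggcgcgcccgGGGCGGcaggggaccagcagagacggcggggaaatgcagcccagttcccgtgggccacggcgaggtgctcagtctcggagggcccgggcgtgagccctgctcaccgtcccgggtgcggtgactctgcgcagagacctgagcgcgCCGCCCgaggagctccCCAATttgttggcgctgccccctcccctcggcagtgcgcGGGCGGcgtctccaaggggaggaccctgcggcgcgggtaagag
Col4a4: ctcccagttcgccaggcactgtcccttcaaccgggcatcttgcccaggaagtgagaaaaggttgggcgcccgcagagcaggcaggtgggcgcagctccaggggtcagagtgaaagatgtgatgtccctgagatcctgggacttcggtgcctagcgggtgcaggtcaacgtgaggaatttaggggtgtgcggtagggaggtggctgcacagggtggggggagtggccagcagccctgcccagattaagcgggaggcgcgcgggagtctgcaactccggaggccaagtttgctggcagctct
Col27a1: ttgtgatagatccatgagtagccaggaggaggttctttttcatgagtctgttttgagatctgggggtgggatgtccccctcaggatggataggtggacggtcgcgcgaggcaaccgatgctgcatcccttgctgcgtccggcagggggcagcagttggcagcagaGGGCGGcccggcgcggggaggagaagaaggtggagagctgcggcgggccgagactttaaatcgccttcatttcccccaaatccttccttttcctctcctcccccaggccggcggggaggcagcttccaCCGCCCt
The Col4a2 window holds 3 GC boxes and 1 CCAAT box, that of Col4a1 1 of each, that of Col27a1 2 GC boxes, and that of Col4a4 none of the motifs. None of the matches overlapped another motif in these windows. Of the 44 members, 35 had at least 1 window, 38 windows in all. A GC box was in 23 of the 38 (60.5%) against 35.7% of all 32851 windows, a CCAAT box in 13 (34.2% against 37.4%) and a TATA box in 5 (13.2% against 13.6%). A match is a description of the letters and not a bound site.

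Type XVIII collagen is a basement membrane proteoglycan whose end fragment is endostatin. Its gene Col18a1 had 27.9, 24.4, 22.8, 22.9 and 23.9 FPKM in m/m libraries and 44.9, 30.3 and 35.2 in db/db vehicle 1 to 3. All db/db libraries were higher than all m/m libraries, by 0.56 ± 0.12 (adjusted p = 0.00353), with a ratio of means of 1.51. Its relative Col15a1, of the same basement membrane zone, had 3.05 to 5.08 FPKM in m/m libraries and 4.67, 1.61 and 3.18 in db/db. Its groups overlapped (-0.19 ± 0.44, adjusted p = 0.770).

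Among the other chains, all 3 tested type VI genes were called higher. Type VI collagen forms beaded filaments around cells and is made mainly by fibroblasts. Col6a1 had 3.93, 2.10, 2.17, 1.80 and 1.93 FPKM in m/m libraries and 14.6, 5.47 and 5.92 in db/db, a log2 difference of 1.42 ± 0.33 (adjusted p = 0.00467) and a ratio of means of 3.64. Col6a2 had 1.99, 1.02, 1.10, 0.954 and 0.819 FPKM in m/m libraries and 7.51, 2.29 and 2.86 in db/db (1.15 ± 0.28, adjusted p = 0.0064, ratio 3.59). For both, vehicle 1 was the highest and m/m 1 the highest control, and the lowest db/db library was above m/m 1. Col6a3 had 1.96, 0.928, 0.934, 1.08 and 0.920 FPKM in m/m libraries and 2.67, 1.54 and 2.16 in db/db. It overlapped through m/m 1, and its difference was smaller, 0.53 ± 0.18 (adjusted p = 0.0339, ratio 1.82).

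Col12a1 and Col14a1 are fibril-associated collagens, which coat type I fibrils. Col12a1 had 0.621, 0.827, 0.678, 0.720 and 0.666 FPKM in m/m libraries and 3.48, 2.07 and 1.98 in db/db. Its lowest db/db library stood well above its highest m/m library; the log2 difference was 1.02 ± 0.23 (adjusted p = 0.00423) and the ratio of means 3.57. Col14a1 was 2.40 to 7.09 FPKM in m/m, with m/m 1 highest, and 7.12, 5.48 and 4.60 in db/db (0.56 ± 0.27, adjusted p = 0.122). Col8a1, a chain of the short-chain network made by endothelial and mesangial cells, had 2.21, 1.59, 3.86, 1.54 and 2.01 FPKM in m/m libraries and 2.69, 4.91 and 7.62 in db/db. It was called, at 0.86 ± 0.25 (adjusted p = 0.0143, ratio 2.26), though m/m 3 lay above vehicle 1. The fibril-associated Col16a1 (-0.09), the transmembrane Col23a1 (-0.02) and Col26a1 (0.15) were not called.

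Of the 9 called members, 5 were called under all 26 alternatives (Col4a2, Col6a1, Col6a2, Col18a1 and Col27a1), and Col12a1 under the 25 in which it was tested. Col4a5 lost its call under 12, Col6a3 under 11 and Col8a1 under 4. Smooth muscle and myofibroblast markers were also higher, at 40.9 to 46.9 FPKM summed in m/m libraries and 64.2 to 94.6 in db/db vehicle 1 to 3 (5 of 6 called). So were 2 of 4 mesangial, 3 of 6 endothelial and 4 of 6 distal tubule markers, where 29.5% of all genes were called higher. These 3 lists were mixed: the mesangial sums overlapped (69.6 to 93.3 FPKM in m/m, 55.5 to 94.7 in db/db vehicle 1 to 3). Agtr1a of the mesangial list, Kdr and Emcn of the endothelial and Umod of the distal tubule list also overlapped between the groups. Of the 6 proximal tubule markers 4 were called lower, but their sums overlapped, at 3467 to 4097 FPKM in m/m libraries and 2632 to 3587 in db/db vehicle 1 to 3. The list was mixed: Slc5a2 and Slc5a12 stood in vehicle 2 and 3 above all m/m libraries. The part of these cells in the differences was not tested. Without vehicle 1, the high-read library with the highest fibroblast and macrophage markers, 7 members were called. In that setting 2939 of all 12869 genes were called higher and 931 lower.

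Below the filter, 5 members were called when no filter was used, where 21.6% of all 17832 genes were called higher and 6.12% lower. Higher were Col13a1, a transmembrane chain, from 0.0864 to 0.227 FPKM in m/m to 0.674, 0.750 and 0.659 in db/db (adjusted p = 2.14e-05), Col4a6 (adjusted p = 0.00261) and Col7a1, the chain of anchoring fibrils, from 0.0918 to 0.200 FPKM to 0.469, 0.355 and 0.488 (adjusted p = 0.0218). Lower were Col6a6 and Col19a1. Col6a6, a further type VI chain, had 0.770, 0.469, 0.857, 0.201 and 1.11 FPKM in m/m, from 93, 55, 98, 23 and 136 reads. It was listed at 0 in vehicle 1 and 3 and at 0.0359 in vehicle 2, from 4 reads (adjusted p = 0.00264), the opposite of Col6a1, Col6a2 and Col6a3. Col19a1, a fibril-associated chain, had 0.289 to 0.591 FPKM in m/m libraries and 0.0569, 0.0505 and 0.0305 in db/db (log2 difference -0.46, adjusted p = 0.000243). Among the 22 members below the filter the libraries did not overlap in 7 higher and 3 lower cases, against 13.3% and 2.24% of the 4963 genes below it. Apart from these 5 and the cartilage chain Col10a1, the other 16 members below the filter reached little expression in any library. Col8a2 reached 1.01 FPKM and Col5a3 0.822, both in vehicle 4, and Col20a1 0.638 in vehicle 3. Col2a1, Col6a4, Col6a5, Col9a1, Col9a2, Col9a3, Col11a1, Col11a2, Col17a1, Col22a1, Col24a1, Col25a1 and Col28a1 stayed at or below 0.463 FPKM. They include chains of types II, IX and XI, known from cartilage.

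Genes that process collagen were taken as 5 lists, of which 65 of 82 genes were tested. In db/db against m/m 30 were called higher and 8 lower, and 18 and 13 with median-of-ratios scaling; no named gene of these lists that was called changed sign under an alternative. Over all genes the shares were 29.5% and 8.31%, and 11.6% and 18.3% with that scaling. Of 10 tested genes of propeptide cleavage and cross-linking, 6 were called higher and 0 lower (median 0.60). They include Loxl1 (1.51 to 3.32 FPKM in m/m against 4.20 to 6.64 in db/db, log2 difference 0.99 ± 0.19, adjusted p = 0.00116) and Lox (0.358 to 0.674 against 0.917 to 2.64 FPKM, 0.86 ± 0.20, adjusted p = 0.00497), lysyl oxidases that cross-link fibrils. Bmp1, which removes the propeptide, differed by 0.94 (adjusted p = 0.00156) and its enhancer Pcolce by 0.81 (adjusted p = 0.0111). Pxdn, the peroxidase that cross-links type IV collagen, differed by -0.08 (adjusted p = 0.751).

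The enzymes and chaperones of the endoplasmic reticulum were split, with 8 of 19 called higher and 5 lower (median 0.11). The prolyl hydroxylase subunit P4ha1 fell, from 16.3 to 21.2 FPKM in m/m to 11.6 to 13.9 in db/db (log2 difference -0.49 ± 0.10, adjusted p = 0.00208), as did its partner P4hb, at 315 to 338 against 261 to 266 FPKM (-0.30, adjusted p = 0.000708). The isomerase Fkbp14 rose by 0.66 (adjusted p = 0.000156) and the collagen galactosyltransferase Colgalt2 by 0.56 (adjusted p = 0.00141). Neither the collagen chaperone Serpinh1 (-0.18, adjusted p = 0.220) nor the lysyl hydroxylase Plod2 (-0.20, adjusted p = 0.247) was called.

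Of 12 tested genes of collagen breakdown, 7 were called higher and 1 lower (median 0.56). Mmp2, a gelatinase, had 0.550 to 0.914 FPKM in m/m libraries and 1.99 to 3.01 in db/db (1.01 ± 0.26, adjusted p = 0.00944). The inhibitor Timp3 was the 1 that fell, from 631 to 909 FPKM to 393 to 438 (-0.86 ± 0.10, adjusted p = 2.38e-05), but over 10% of its exon length overlaps another gene, so its value is uncertain. Timp1 was not called (0.47, adjusted p = 0.508). Ctsl (0.31, adjusted p = 0.00944) and Ctsb (0.39, adjusted p = 0.0099), lysosomal proteases, and the isomerase Ppib (0.27, adjusted p = 0.00169) were called higher but also overlap other genes. Of the 5 tested collagen receptors 0 were called (0 at an unadjusted p under 0.05), Ddr1 among them (0.16, adjusted p = 0.183). Of 19 basement membrane partners 9 were called higher and 2 lower (median 0.21): the laminin chains Lamb2 (0.63, adjusted p = 7.62e-05) and Lama5 (0.84, adjusted p = 0.000259) rose, and Fras1, a basement membrane anchor, fell (-0.58, adjusted p = 0.000435).

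Dapagliflozin was compared with vehicle in the low-read libraries only. Of the 22 tested members, 0 were called, 2 had an unadjusted p under 0.05, and the smallest adjusted p was 0.262. Over all genes 0.28% were called. The median log2 difference of the members was -0.28 against -0.02 over all genes, with 18 of 22 below 0, and in 0 tested members did the groups stand apart (5.73% of all genes higher, 7.09% lower). The values of single libraries show how wide the spread was.

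Col1a1 had 25.9 and 2.50 FPKM in vehicle 4 and 5 and 3.33, 5.03, 3.79, 2.89 and 23.4 in dapagliflozin 1 to 5. Vehicle 4 and dapagliflozin 5, which differ by less than sampling noise, were high together, and the other 5 libraries were low together. The log2 difference was -0.50 ± 0.79 (95% interval -2.19 to 1.20, adjusted p = 0.857); without vehicle 4 it was 0.97, and without dapagliflozin 1 and 5 it was -1.08. Col1a2 (24.2 and 6.39 FPKM in vehicle, 6.04, 6.63, 6.57, 5.59 and 22.0 in dapagliflozin) and Col3a1 (22.2 and 2.57, and 3.17, 4.51, 4.04, 3.26 and 20.4) had the same pattern. Their log2 differences were -0.52 ± 0.56 and -0.45 ± 0.75, and without vehicle 4 they were 0.36 and 0.91. The direction of these interstitial chains under the drug therefore turned on 1 library.

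Col4a1 had 42.2 and 26.3 FPKM in vehicle 4 and 5 and 25.4, 21.4, 18.1, 19.9 and 37.6 in dapagliflozin 1 to 5, a log2 difference of -0.41 ± 0.22 (95% interval -0.88 to 0.05, adjusted p = 0.457). Col4a2 had 54.0 and 36.6 FPKM in vehicle and 32.0, 29.7, 29.0, 29.7 and 49.3 in dapagliflozin (-0.37 ± 0.18, adjusted p = 0.425). In both, 4 of 5 dapagliflozin libraries lay below both vehicle libraries and dapagliflozin 5 lay between them. Without dapagliflozin 1 and 5 the 2 genes were called lower, at -0.72 (adjusted p = 0.0348) and -0.57 (adjusted p = 0.0481), in 2 samples against 2. In that setting 1.45% of all genes were called higher and 2.26% lower. It kept vehicle 4, which differed from the omitted dapagliflozin 5 by less than sampling noise. With vehicle 4 left out instead, the log2 differences of Col4a1 and Col4a2 were -0.083 and -0.093. Col4a5 had 6.14 and 5.25 FPKM in vehicle and 3.75, 4.56, 4.95, 4.53 and 5.67 in dapagliflozin (-0.25 ± 0.12, adjusted p = 0.405). None of the glomerular chains was called: Col4a3 had 18.8 and 15.8 FPKM in vehicle and 13.1 to 16.8 in dapagliflozin (-0.21 ± 0.14), and Col4a4 18.7 and 17.5 and 17.6 to 19.6 (0.05 ± 0.10).

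The members called higher in db/db against m/m were also not called under the drug. Col6a1 had 10.2 and 4.53 FPKM in vehicle and 4.97, 5.41, 4.24, 4.43 and 10.2 in dapagliflozin (-0.22 ± 0.39, adjusted p = 0.880), again with vehicle 4 and dapagliflozin 5 high. Col27a1 had 8.60 and 16.3 FPKM in vehicle and 19.1, 13.8, 13.9, 15.5 and 12.6 in dapagliflozin (0.32 ± 0.41, adjusted p = 0.809), and here vehicle 4 and dapagliflozin 5 were the 2 lowest. Col6a2 (-0.29), Col6a3 (-0.28), Col8a1 (-0.13), Col12a1 (-0.42) and Col18a1 (-0.09) had intervals that include 0. The 2 members with an unadjusted p under 0.05 were Col26a1, at 0.132 and 0.836 FPKM in vehicle, from 1 and 6 reads, and 0.821 to 1.32 in dapagliflozin (0.49 ± 0.18, adjusted p = 0.262), and Col23a1, at 0.925 and 1.06 in vehicle and 0.835 to 1.90 in dapagliflozin (0.30 ± 0.13, adjusted p = 0.382). Below the filter, Col7a1 had 1.14 and 0.687 FPKM in vehicle and 0.231, 0.258, 0.337, 0.218 and 0.615 in dapagliflozin, from 21 and 12 reads against 4 to 13. Its groups did not overlap (of all genes below the filter, 4.03% did so in this direction and 1.63% in the other), and with no filter its difference was -0.51 (adjusted p = 0.05004, not called). At 1.60 to 2.29 M reads such genes rest on few reads: a library held 1897 to 4473 reads of collagen genes, against 25303 to 37600 in the high-read set. Of the 65 tested collagen-processing genes, 0 were called under dapagliflozin (3 at an unadjusted p under 0.05).

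The same genotype and treatment, db/db with vehicle, was present in both library sets, which shows how far the sets differ. Of the 22 members, 5 were called between vehicle 4 and 5 and vehicle 1 to 3, all lower in the low-read set, where 61.1% of all genes were called (42.3% lower, 18.8% higher). They were Col4a3 (17.3 FPKM on average against 37.7, log2 difference -1.07 ± 0.15, adjusted p = 2.45e-05), Col4a4 (-0.73, adjusted p = 3.61e-05), Col4a5 (-0.59, adjusted p = 0.000865), Col4a1 (-0.78, adjusted p = 0.00857) and Col8a1 (-0.86, adjusted p = 0.0261). Col4a2 differed by -0.23 and was not called. The low-read libraries also held 9.08 to 12.3 FPKM of Star, a steroidogenic gene on the adrenal cortex list, against 0.12 to 0.533 in the high-read ones; the other 2 genes of that list in the table, Cyp11a1 and Cyp21a1, stayed at or below 0.261 FPKM. Col10a1, a chain of growing cartilage, was at 0 in 6 of the 8 high-read libraries and at 1 read in the others, and had 3 to 6 reads in 6 of the 7 low-read libraries.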

How the data were processed

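Polyadenylated RNA of whole kidney was sequenced from stranded mRNA libraries, per the labels' protocols. The authors deposited 1 table of FPKM for 17832 genes in 15 libraries. Build GRCm39 and the tools Cufflinks, HTSeq, HISAT2 and Trimmomatic are named per the submitters' processing notes; versions, settings and strandedness of the counting are not given. Every value above 0 (229486 in 17244 genes) was a whole multiple of what 1 read is worth (relative tolerance 1e-08), so reads per gene and library were recovered and used for depth and for noise between pairs. A boundary of 5 M reads defined the library sets.

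The collagen members, the gene lists and the comparisons were chosen with earlier results of these data known. Group and library set were fitted together in limma 3.58.1 (R 4.3.3) on log2(FPKM + 1) with an intensity trend. It covered the 12869 genes averaging 0.5 FPKM or more, with 2-sided tests and Benjamini-Hochberg adjustment over all of them. Dapagliflozin 2 and 3 were averaged, which leaves 14 samples. The spread comes from all of them, so the fit assumes equal variation in every group and in both library sets. Tested on simulated data, the fit was near its stated error rate for db/db against m/m but called unchanged genes too often for dapagliflozin against vehicle. The simulation gave every library the spread of the m/m libraries. Pairs within db/db vehicle 1 to 3 had variance ratios of 4.58 to 7.50, against 1.84 to 3.15 within m/m. The simulation therefore cannot show the error rate for db/db against m/m at that wider spread. Full values are given for every called member and for a list of main chains; of the collagen-processing genes, up to 4 called genes per list by smallest p and 8 more are named. One gene that met this rule is not reported here. Genes were matched by symbol to GENCODE vM21 and RefSeq (GRCm38) for exon overlap, start windows and orientation only. Alternatives were another pseudocount (0.1), no filter or one at 2 FPKM, median-of-ratios and quantile scaling, pooled library sets, only the libraries compared, a replicate block, and each library left out; leaving out dapagliflozin 1 and 5 and averaging dapagliflozin 1, 2 and 3 were added after seeing the data.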

Additional observations from a re-analysis of the deposited data

Results flagged for a closer look

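In groups of 4 or 5 samples, a sample was marked where its gap to the nearest other was large for the range of the group. Of 44 groups of tested members, 16 were marked, where chance gives about 5%; the genes vary together, so these are not 16 separate events. In dapagliflozin all 7 were dapagliflozin 5, with 23.4 FPKM of Col1a1 (nearest sample 4.41), 22.0 of Col1a2, 20.4 of Col3a1, 49.3 of Col4a2, 2.26 of Col5a1, 10.2 of Col6a1 and 8.14 of Col15a1. In m/m there were 9, of which 8 were m/m 1, with 3.59 FPKM of Col1a1 (nearest sample 2.11), 8.26 of Col1a2, 5.58 of Col3a1, 3.93 of Col6a1, 1.99 of Col6a2, 1.96 of Col6a3, 7.09 of Col14a1 and 5.08 of Col15a1, and 1 was m/m 3, with 3.86 of Col8a1. The 8 fibroblast and pericyte markers were also highest of m/m in m/m 1 (26.8 FPKM summed), and its part in these values was not tested.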

How the results depend on the processing

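The count of members called for db/db against m/m was 6 to 13 over the alternatives (9 as reported), 6 to 11 with a library left out, and 7 with a replicate block. The calls over all genes moved as well, to 1489 to 5243 higher and 816 to 2349 lower over the alternatives. With a library left out they were 2554 to 4110 higher and 816 to 1112 lower, and with a replicate block 3125 and 859. For dapagliflozin against vehicle it was 0 except with library sets pooled (3: Col23a1, Col4a1 and Col4a5) and without dapagliflozin 1 and 5 (2). With the sets pooled, 175 of all 12869 genes were called higher and 675 lower. Pooled vehicle holds libraries of both sets and dapagliflozin only low-read ones, so drug and library set cannot be told apart there. The collagen-processing genes called went from 0 to 1 with no filter, where 64 of all 17832 genes were called higher and 158 lower. They were 26 to 43 for db/db against m/m (26 to 39 with a library left out). The members called between library sets were 10 with no filter and 4 to 6 with a library left out. Between the library sets with no filter, 2775 of all 17832 genes were called higher and 5841 lower. The cause of these changes was not tested.

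Whether the replicate numbers pair the samples was not settled by so few pairs. Deviations of same-numbered m/m and db/db libraries correlated at 0.38, 0.05 and -0.01, and of differently numbered ones at -0.30 to 0.19. Same-numbered vehicle and dapagliflozin libraries of the low-read set correlated at -0.05 and -0.72, and differently numbered ones at -0.54 to 0.72. The deviations of the 2 vehicle libraries from their mean are mirror images, so each correlation with vehicle 5 is that with vehicle 4 with the sign turned. The value of -0.72 for dapagliflozin 5 and vehicle 5 thus restates 0.72 with vehicle 4, and these values cannot decide the pairing. Under the replicate block the calls were 7 of db/db, 0 of dapagliflozin, 33 and 0 of collagen processing and 4 of library set, and Col5a2 under dapagliflozin turned to 0.11.

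In both group comparisons, signs of members turned only in differences that were not called. For db/db against m/m, quantile normalization gave -0.062 for Col5a2 and -0.049 for Col26a1 and pooled sets 0.074 for Col23a1; with a library left out, Col15a1 ranged from -0.44 to 0.11, Col16a1 from -0.27 to 0.044 and Col23a1 from -0.10 to 0.11. For dapagliflozin, pooled sets gave -0.38 for Col4a4 and -0.076 for Col27a1. With a library left out the range was -1.97 to 0.97 for Col1a1, -1.41 to 0.36 for Col1a2, -1.80 to 0.91 for Col3a1, -0.78 to 0.089 for Col5a1, -0.67 to 0.090 for Col5a2, -0.73 to 0.30 for Col6a1, -0.59 to 0.0078 for Col6a2, -0.27 to 0.016 for Col8a1, -0.86 to 0.019 for Col12a1, -1.27 to 0.71 for Col15a1, -0.28 to 0.10 for Col18a1 and -0.10 to 0.75 for Col27a1. At 1.60 to 2.29 M reads, members below about 1 FPKM rest on a few reads, which limits what could be detected.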
